A study of Mus musculus with 36 samples.

Results

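Heme oxygenase 1 (Hmox1) and 7 other genes known as targets of the transcription factor NRF2 were followed across heart, kidney and liver of growing mice. The genes were chosen by name: Hmox1, Nqo1, Gclc, Gclm, Txnrd1, Srxn1, Slc7a11 and Osgin1, 8 of the 78239 genes counted, and all 8 symbols matched an Ensembl identifier. The 3 organs came from male mice of the strain C57BL/6NCrl aged 8, 10 or 12 weeks, and bulk RNA sequencing gave 4 libraries for each of the 9 combinations of organ and age, 36 in all. All mice were wild type (WT), were kept on standard chow and were anaesthetised with ketamine and xylazine before the organs were taken, so that age and organ were the only labelled differences. The mice were bought at the same age and grouped by age at sacrifice. Age therefore cannot be told apart from time since arrival, and the labels do not give the day of harvest. No stress-exposed comparison group belonged to the design. In whole organs, fewer cells of a type and less RNA per cell cannot be told apart.

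NRF2, encoded by Nfe2l2, is held low by the adaptor KEAP1, which presents it for degradation. When electrophiles or oxidants modify KEAP1, NRF2 enters the nucleus, pairs with a small MAF protein and binds antioxidant response elements near genes of glutathione synthesis, thioredoxin recycling and quinone reduction. Hmox1 is under an additional brake, the repressor BACH1, which leaves the same elements when it binds heme, so Hmox1 is also known as a gene of heme breakdown in macrophages and in injured kidney tubules.

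The members sit on 5 chromosomes in the GRCm39 assembly, and all are protein-coding. Hmox1 (ENSMUSG00000005413, chr8:75820241-75827217, forward strand) cleaves heme to biliverdin, iron and carbon monoxide. Nqo1 (chr8:108113835-108129934, reverse strand) is a quinone reductase. Gclc (chr9:77661797-77701770, forward strand) and Gclm (chr3:122039126-122065061, forward strand) are the catalytic and modifier subunits of glutamate-cysteine ligase, the first enzyme of glutathione synthesis. Slc7a11 (chr3:49846975-50398070, reverse strand) is the cystine transporter that feeds that enzyme. Txnrd1 (chr10:82669785-82733546, forward strand) reduces cytosolic thioredoxin, and Srxn1 (chr2:151947436-151957687, forward strand) restores over-oxidised peroxiredoxins. Osgin1 (chr8:120152470-120173000, forward strand) encodes an oxidative stress-induced growth inhibitor.

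Promoter sequence from RefSeq (GRCm38.p6) was matched by symbol for 6 of the 8 members; Hmox1 and Gclc were the others. The 250 bases before each annotated start were searched on both strands for the antioxidant response element core TGACNNNGC and for TGANTCA, the heptamer of AP-1 sites that NRF2-MAF and BACH1-MAF elements can contain and that reads the same on both strands. The core was found in 10.2% of all 32851 windows of that length and the heptamer in 6.75%. Of the 8 windows of the members, 4 held a match, and these are printed because they show which members carry these letters close to the start; capitals mark the matches, 5′ to 3′ on the strand of the gene, which is the forward strand for all 4.
Gclm (chr3:122245307-122245556): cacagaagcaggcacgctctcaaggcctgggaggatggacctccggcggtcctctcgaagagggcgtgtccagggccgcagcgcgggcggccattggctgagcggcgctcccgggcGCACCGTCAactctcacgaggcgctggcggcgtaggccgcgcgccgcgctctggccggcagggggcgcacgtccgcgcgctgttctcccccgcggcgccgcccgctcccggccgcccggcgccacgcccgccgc
Txnrd1 (chr10:82858956-82859205): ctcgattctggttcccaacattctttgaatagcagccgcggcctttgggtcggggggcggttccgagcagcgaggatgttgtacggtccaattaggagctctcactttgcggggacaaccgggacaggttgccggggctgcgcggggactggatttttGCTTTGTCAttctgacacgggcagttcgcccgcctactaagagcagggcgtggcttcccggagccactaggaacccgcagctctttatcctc
Srxn1 (chr2:152105274-152105523): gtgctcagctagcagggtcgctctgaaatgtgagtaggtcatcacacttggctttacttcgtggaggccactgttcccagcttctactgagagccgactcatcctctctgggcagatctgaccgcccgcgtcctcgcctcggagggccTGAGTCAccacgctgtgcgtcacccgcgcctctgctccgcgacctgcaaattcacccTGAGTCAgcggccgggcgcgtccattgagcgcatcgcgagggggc
Osgin1 (chr8:119436897-119437146): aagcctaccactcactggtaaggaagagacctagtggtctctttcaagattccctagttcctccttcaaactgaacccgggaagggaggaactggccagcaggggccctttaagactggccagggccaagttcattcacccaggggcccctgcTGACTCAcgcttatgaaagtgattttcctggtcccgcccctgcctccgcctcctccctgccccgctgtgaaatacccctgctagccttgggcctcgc
The Gclm window held the core on the reverse strand, 134 to 126 bases before the start, and a Txnrd1 window held it on the reverse strand at 92 to 84 bases. Srxn1 had 2 heptamers, at 102 to 96 and at 45 to 39 bases, and Osgin1 had 1 at 97 to 91 bases. The Nqo1 and Slc7a11 windows held neither string. A match is a description of letters and not of binding.

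Each library held 21031599 to 33637390 read pairs assigned to genes, and levels are given as CPM, the counts scaled to a common library total with TMM factors. Markers matched the labelled organs: summed CPM of 4 proximal tubule genes was 5795 to 7269 in kidney and at most 4.92 elsewhere, 3 cardiomyocyte genes summed to at least 33314 in heart and at most 1.11 elsewhere, and 3 hepatocyte genes summed to at least 80861 in liver and at most 150.1 elsewhere. Of the members, 7 passed the filter on low counts in every organ and Slc7a11 passed in none. The spread between libraries was wider in liver, where the common coefficient of variation was 0.206, than in kidney at 0.113 or heart at 0.118, and 1 liver library at 12 weeks stood apart for several members, as described below. The study describes the libraries as biological replicates, and p-values set each difference against the spread between them.

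In the kidney, Hmox1 was the only member that edgeR called between ages. The study itself names renal Hmox1 as lower at 12 weeks from these same libraries, so the direction of its change is not independent evidence. At 8 weeks the 4 kidneys read 69.4, 106, 57.2 and 83.9 CPM. At 10 weeks they read 24.9, 25.4, 26.2 and 18.1 CPM, and at 12 weeks 20.1, 22.7, 22.5 and 52.1 CPM. Every kidney of 10 or 12 weeks lay below every kidney of 8 weeks, while the 10- and 12-week kidneys overlapped and 1 of the 12-week kidneys, replicate 4, stood well above the other 3 of its age. The group means were 79.1 ± 20.8, 23.6 ± 3.74 and 29.4 ± 15.2 CPM (SD, n = 4).

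Between 8 and 10 weeks renal Hmox1 fell by 1.72 ± 0.27 (SE) on the log2 scale (edgeR quasi-likelihood test, Benjamini-Hochberg adjusted p = 0.0135). It was the only member called in that comparison, 1 of 7 tested, where 0.929% of all 17649 genes were called, and the call was lost without 10-week replicate 3 (log2 fold change -1.77, adjusted p = 0.0546). There 4 members, Hmox1, Gclc, Osgin1 and Srxn1, had an unadjusted p under 0.05, and limma-voom and DESeq2 called 1 member each. Counts at an unadjusted p, here and below, are given without the share of all genes at that p. They therefore do not show an excess of members or list genes. Between 8 and 12 weeks the fitted change was -1.43 ± 0.27 and did not pass (edgeR adjusted p = 0.104, unadjusted p = 1.26e-04), although the groups did not overlap (exact two-sided permutation p = 0.0286, the smallest that 4 against 4 allows). In that comparison edgeR called 0 members and 0.0567% of all genes, with 1 member at an unadjusted p under 0.05; DESeq2 called Hmox1 (adjusted p = 0.00488) and limma-voom did not (adjusted p = 0.0579). Without 12-week replicate 4, the change was -1.86 with an edgeR adjusted p of 0.00174. From 10 to 12 weeks Hmox1 differed by 0.29 ± 0.27 (adjusted p = 0.652).

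**Figure D1:**
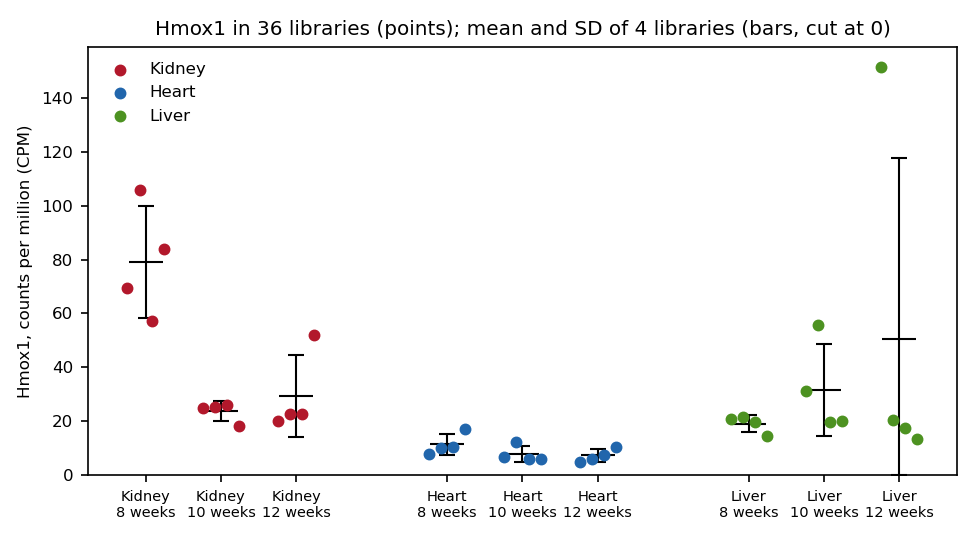
Hmox1 level in CPM (vertical axis) for each of the 36 libraries, grouped by tissue and age; points are libraries, bars the mean and SD of 4, cut at 0. The 4 kidneys of 8 weeks lie between 57.2 and 106 CPM, above all other kidneys, and 1 liver of 12 weeks reads 151 CPM.

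Osgin1 was the other member that was lower in every 10-week kidney. Osgin1 read 41.1, 39.2, 34.4 and 43.8 CPM at 8 weeks and 26.4, 29.4, 32.0 and 34.0 CPM at 10 weeks. The 2 ages did not overlap, with the 10-week kidneys lower, but the difference of -0.36 ± 0.14 did not pass (edgeR adjusted p = 0.203). With Hmox1, Osgin1 made 2 members that were lower at 10 weeks without overlap, where 4.07% of all genes were; at 12 against 8 weeks Hmox1 was the 1 such member, against 2.95% of all genes. At 12 weeks Osgin1 read 37.6, 39.9, 23.1 and 31.5 CPM and overlapped both other ages.

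The glutathione-synthesis members overlapped between all ages in kidney. Gclc read 219, 162, 241 and 209 CPM at 8 weeks, 309, 285, 223 and 252 CPM at 10 weeks and 189, 318, 183 and 177 CPM at 12 weeks. The 10-week kidneys were mostly higher than those of 8 weeks but overlapped them (log2 fold change 0.39 ± 0.18, edgeR adjusted p = 0.294), and 12-week replicate 2 was far above its 3 companions. Gclm, the modifier subunit, stayed between 266 and 319 CPM in all 12 kidneys, and none of its 3 age differences exceeded 0.05 on the log2 scale.

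Txnrd1, the thioredoxin reductase, was the steadiest member in kidney, at 129 to 147 CPM with a coefficient of variation of 4.00% over 12 libraries. Its 12-week kidneys (132, 137, 135 and 135 CPM) all lay below its 10-week kidneys (147, 139, 144 and 144 CPM), a difference of -0.11 ± 0.05 that did not pass (edgeR adjusted p = 0.267). Srxn1 ranged from 47.9 to 66.7 CPM, with a difference of 0.19 ± 0.07 at 10 against 8 weeks (edgeR adjusted p = 0.182), and Nqo1 from 36.2 to 46.8 CPM, with the ages of each overlapping. In 12 against 10 weeks, edgeR, DESeq2 and limma-voom called 0 members, 1 member had an unadjusted p under 0.05, and 0.482% of all genes were called; 2 of 8 members, Txnrd1 and the barely counted Slc7a11, were lower at 12 weeks without overlap, against 4.39% of all genes. Over the 7 tested members the median log2 change in kidney was 0.05 at 12 against 8 weeks and 0.07 at 10 against 8 weeks, beside 0.0025 and 0.0023 for all genes.

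Slc7a11, the cystine transporter, was close to undetected in these organs. Its raw counts per kidney library were 1 to 12, and per heart library 0 to 5, with 2 of 12 hearts at 0. In liver 9 of 12 libraries were at 0 and 32 of the 39 counts came from 12-week replicate 1. In the livers at 0, a count of 0 allows up to 0.119 to 0.183 CPM (3 counts), counting error only, so a level below that was not detectable.

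**Figure D2:**
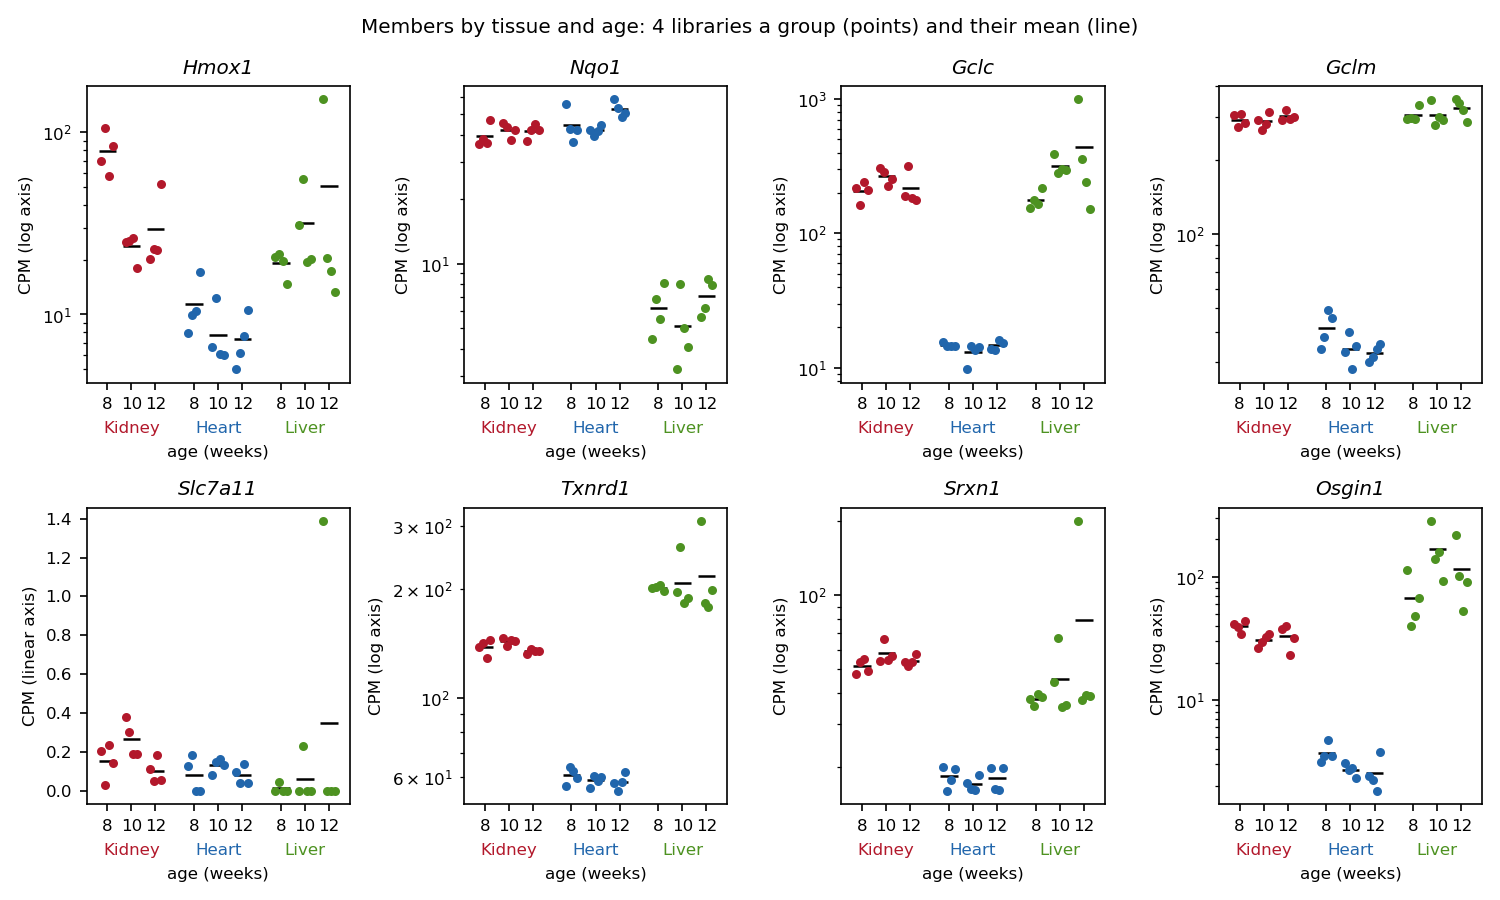
Level in CPM of each of the 8 members in 36 libraries by tissue and age in weeks (log axes, except the linear axis of Slc7a11); points are libraries and lines the mean of 4. Renal Gclm and Txnrd1 hold to 266-319 and 129-147 CPM while renal Hmox1 spans 18.1 to 106 CPM.

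No regulator of NRF2 was called in kidney. Of 10 tested, edgeR, limma-voom and DESeq2 called 0 in each of the 3 kidney comparisons, with 1 at an unadjusted p under 0.05 at 12 against 8 weeks, 3 at 10 against 8 weeks and 1 at 12 against 10 weeks, and Nfe2l2 itself read 61.7 ± 2.91, 62.2 ± 2.77 and 62.1 ± 3.42 CPM (SD, n = 4) at 8, 10 and 12 weeks. Bach1, the repressor, read 37.5 ± 2.85, 30.8 ± 4.30 and 31.4 ± 3.08 CPM, and Keap1 lay between 13.2 and 17.7 CPM in all 12 kidneys. Of 10 heme and iron genes tested at 10 against 8 weeks, 1 fell: Slc48a1, which carries heme out of endosomes, read 140 to 143 CPM at 8 weeks and 114 to 121 CPM at 10 weeks (log2 fold change -0.23 ± 0.05, adjusted p = 0.0467). Of 16 genes of glutathione use and recycling tested, 1 rose at 10 weeks, the glutathione transferase Gstm2 (0.59 ± 0.11, adjusted p = 0.0237), with means of 35.1 and 52.0 CPM. The 7 genes of the thioredoxin system, 6 NADPH-forming enzymes, 8 quinone, aldehyde and xenobiotic enzymes and 9 ATF4 targets had 0 edgeR calls in the 3 kidney comparisons. Over all 76 list genes tested, edgeR called 1 at 12 against 8 weeks (17 at an unadjusted p under 0.05, DESeq2 4), 2 at 10 against 8 weeks (25 unadjusted, DESeq2 8) and 1 at 12 against 10 weeks (20 unadjusted, DESeq2 4). Of all genes edgeR called 0.0567%, 0.929% and 0.482%, in that order. The 76 include 4 stress and clock genes that the study picked from these libraries. At 12 against 8 weeks those 4 gave the 1 edgeR call, 3 of the DESeq2 calls and 3 of the unadjusted ones. At 10 against 8 weeks they gave 0 edgeR calls, 3 of the DESeq2 calls and 4 of the unadjusted ones. Of 6 other antioxidant genes, 1 was called at 12 against 10 weeks, the glutathione peroxidase Gpx1 (-1.35 ± 0.25, adjusted p = 0.0330). Counting dropped reads shared by overlapping genes or near-identical copies, so values of the glutathione transferases, Gpx1 and the ferritin chain Ftl1 are uncertain.

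Among 4 stress and clock genes that the study picked from these libraries, and whose direction is therefore not independent evidence, 1 passed in kidney at 12 against 8 weeks. Ddit4, an inhibitor of mTORC1, fell by 1.36 ± 0.22 on the log2 scale (edgeR adjusted p = 0.0469), from 42.6 ± 6.52 to 16.6 ± 5.98 CPM (SD, n = 4). The median over the 4 genes was -1.39, beside 0.0025 over all genes, limma-voom called 1 of them and DESeq2 3.

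Markers of other cells were set beside the renal Hmox1 values. A list of 9 markers for heme-recycling macrophages, a cell type rich in Hmox1, also held general macrophage genes such as Adgre1, Cd68 and Csf1r. The list summed to 60.2-68.6 CPM at 8 weeks, 60.8-75.3 at 10 weeks and 71.9-87.6 at 12 weeks. Vsig4 and Clec4f, 2 of the list, were at 0 in all 12 kidneys, and Marco was at 0 in all 10-week kidneys. The sum is therefore not specific to heme-recycling cells. Red cell markers summed to 0.923 to 4.94 CPM over all kidneys, with 2 of 5 at 0, and neutrophil markers to at most 0.908 CPM. Those 2, the globin genes Hba-a2 and Hbb-bs, were also at 0 in every heart and liver, although the red cell sum reached 904 CPM in heart. Reads mapping to several places were not counted, so a value of 0 for these genes does not show absence. The 2 brown fat markers summed to 23.8 CPM in 8-week replicate 2, the kidney with the highest Hmox1. They summed to at most 0.168 CPM in the other 3 kidneys of 8 weeks, to 0.633-6.18 CPM at 10 weeks and to 0.0756-10.3 CPM at 12 weeks. The part of these cells in the renal values was not tested.

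Likeness to Hmox1 was ranked over the 12 kidney libraries, as a description, by Pearson's r of log2 CPM among 8403 genes of at least 10 CPM. The highest were Cspg4 at 0.92, Dennd11 at 0.90, Ttyh3 at 0.87, Kctd17 at 0.86 and the heme transporter Slc48a1 at 0.85. The 12 points share the 3 ages, between which Hmox1 itself differed, and all genes of a library share its depth. Cspg4, a proteoglycan of pericytes, read 21.4 to 24.8 CPM at 8 weeks and 16.2 to 20.0 CPM later. Of the members, over the kidney libraries, Osgin1 had an r of 0.51, Txnrd1 of -0.08, Nqo1 of -0.28, Gclm of -0.29, Srxn1 of -0.41 and Gclc of -0.48. Over the 9 group means, which span the 3 organs, 9206 genes were compared, with Trim33, Snrnp70, Slc25a42, Pxmp4 and Kctd6 leading at 0.92 to 0.93. There Srxn1 had an r of 0.86, Gclm 0.85, Gclc 0.84, Osgin1 0.79, Txnrd1 0.74 and Nqo1 -0.29, and these 9 points share organs as well as ages.

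**Figure D3:**
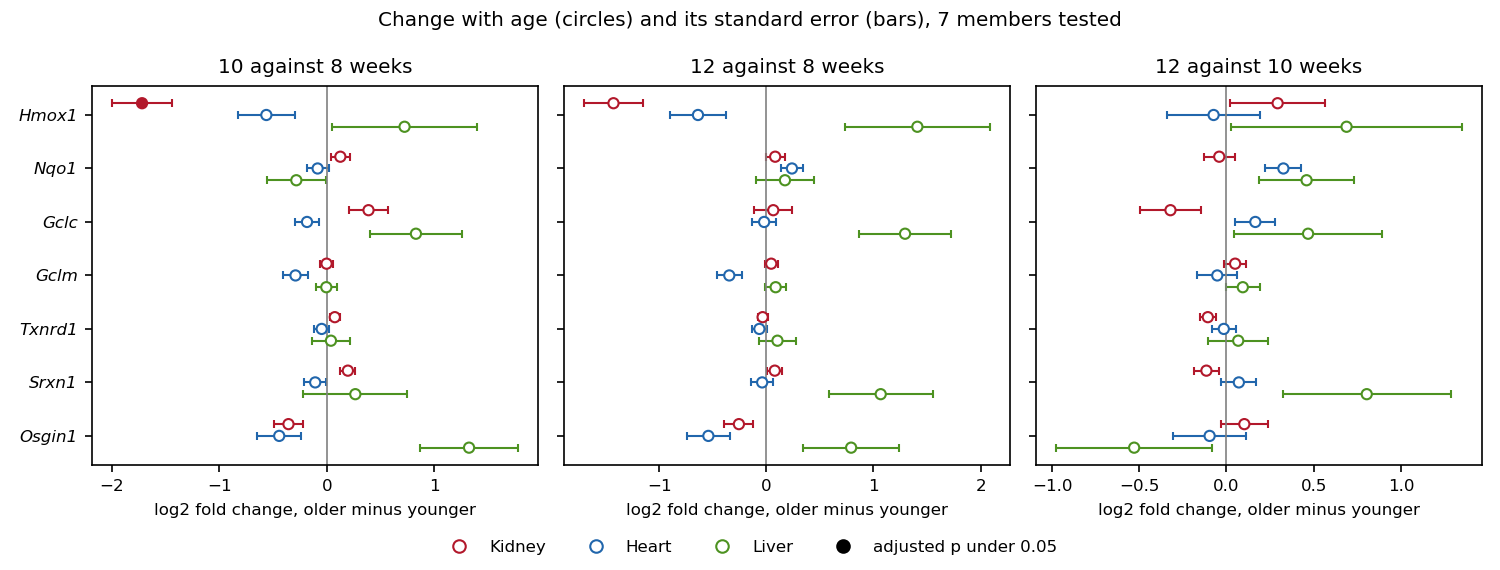
Log2 fold change (horizontal axis, older minus younger, edgeR) with its standard error for the 7 tested members in 3 organs and 3 age comparisons. The filled point is Hmox1 in kidney at 10 against 8 weeks, -1.72, the only call at an adjusted p under 0.05. Liver bars are the widest, except for Gclm, whose heart bars are wider.

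In the heart Hmox1 was low and its ages overlapped. The 8-week hearts read 7.94, 9.92, 10.4 and 17.2 CPM, the 10-week hearts 6.60, 12.3, 6.09 and 5.97 CPM and the 12-week hearts 5.02, 6.12, 7.58 and 10.5 CPM. Older hearts were mostly lower, yet each age overlapped the others, and the change of -0.64 ± 0.26 from 8 to 12 weeks did not pass (edgeR adjusted p = 0.155). Osgin1 was lower at 10 weeks (3.03, 2.69, 2.80 and 2.31 CPM) than at 8 weeks (3.12, 3.49, 4.66 and 3.51 CPM) without overlap, and it was the 1 such member, against 4.72% of all genes. This difference of -0.44 ± 0.20 did not pass either (adjusted p = 0.304).

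Gclm, the modifier subunit, came nearest to a call in heart. It read 34.0, 38.2, 48.9 and 45.4 CPM at 8 weeks and 30.2, 31.6, 34.1 and 35.5 CPM at 12 weeks, which overlapped at the lower end (-0.34 ± 0.11, edgeR adjusted p = 0.0863). DESeq2 called it, and so did edgeR without 8-week replicate 1 (-0.43, adjusted p = 0.0340). Nqo1, the quinone reductase, read 42.0, 39.7, 41.9 and 44.4 CPM at 10 weeks and 58.6, 53.6, 48.3 and 50.9 CPM at 12 weeks. All 12-week hearts were above all 10-week hearts for Nqo1, the 1 such member where 3.26% of all genes were, and the difference of 0.33 ± 0.10 did not pass (adjusted p = 0.264). Gclc (9.75 to 15.9 CPM), Txnrd1 (55.1 to 64.1 CPM) and Srxn1 (16.1 to 20.0 CPM) had narrow ranges over the 12 hearts.

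Markers of other organs and of blood varied among hearts. Hepatocyte markers summed to 0.288-21.2 CPM and tubule markers to 2.79-4.92 CPM at 10 weeks, against at most 0.289 and 2.13 CPM at 8 weeks. At 12 weeks these sums were 0.344-3.54 and 2.65-3.90 CPM, also above those of 8 weeks. Neutrophil markers summed to 11.9 CPM in 10-week replicate 2, the heart with the highest Hmox1 of its age, and to 1.70-1.93 CPM in the other 3. Their part in the heart values was not tested.

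Of the 7 members tested in heart, edgeR called 0 at 12 against 8 weeks, where 4.56% of all genes were called, 0 at 10 against 8 weeks (1.06%) and 0 at 12 against 10 weeks (0.0396%). At an unadjusted p under 0.05 the counts were 4, 3 and 1, DESeq2 called 1, 0 and 0, and limma-voom 0 in each. At 12 against 8 weeks 0 of 8 members differed without overlap, where 12.7% of all genes did. Without 12-week replicate 4, Osgin1 passed at 12 against 8 weeks (-0.79, adjusted p = 0.0175), and without 8-week replicate 1 Nqo1 passed there (0.37, adjusted p = 0.0238). Of 71 list genes tested in heart, edgeR called 7 at 12 against 8 weeks, 0 at 10 against 8 weeks (16 at an unadjusted p under 0.05, DESeq2 2, limma-voom 0) and 0 at 12 against 10 weeks (11 unadjusted, DESeq2 and limma-voom 0). The ferritin light chain Ftl1 fell by 0.68 ± 0.15 on the log2 scale (adjusted p = 0.0220), 1 of 11 heme and iron genes. Sqstm1, the adaptor p62 that draws KEAP1 into autophagy, fell by 0.40 ± 0.10 (adjusted p = 0.0314), 1 of 10 regulators, and Atf3, a stress-induced transcription factor, fell by 1.06 ± 0.26 (adjusted p = 0.0310), 1 of 9 ATF4 targets. Txnip, an inhibitor of thioredoxin, rose by 0.89 ± 0.20 (adjusted p = 0.0214) and Txnrd3 by 0.32 ± 0.08 (adjusted p = 0.0380), 2 of 7 genes of the thioredoxin system. The exporter Abcc4 rose by 0.40 ± 0.10 (adjusted p = 0.0344), 1 of 13 genes of glutathione use, and Ddit4, from the list the study picked, fell by 1.29 ± 0.28 (adjusted p = 0.0204).

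In the liver the highest values of most members came from a single 12-week library. Hmox1 read 20.8, 21.4, 19.6 and 14.7 CPM at 8 weeks, 31.0, 55.7, 19.5 and 20.1 CPM at 10 weeks and 151, 20.5, 17.3 and 13.3 CPM at 12 weeks. Replicate 1 of 12 weeks was 7.52 times the median of the other 11 livers, and the other 12-week livers overlapped those of 8 weeks. The fitted change from 8 to 12 weeks was 1.41 ± 0.68 (edgeR adjusted p = 0.348), and without that library it was -0.19 (adjusted p = 0.834).

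The same library led for most members. Gclc read 993 CPM there and 360, 242 and 153 CPM in the other 12-week livers. Srxn1 read 201 CPM there and 37.6, 39.3 and 39.1 CPM in the others, and Txnrd1 309 CPM against 183, 178 and 199 CPM. These 3 genes were thus 4.10, 5.19 and 1.57 times the median of the other 11 livers. Gclm was highest there by a small margin (354 CPM, the next liver 352), Osgin1 was second at 219 CPM behind 10-week replicate 1 at 282 CPM, and Nqo1, at 5.64 CPM, was in the middle of its range of 3.22 to 8.48 CPM. In all, 6 of 8 members had their highest liver value in this library, where 12.7% of 14672 genes did.

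**Figure D4:**
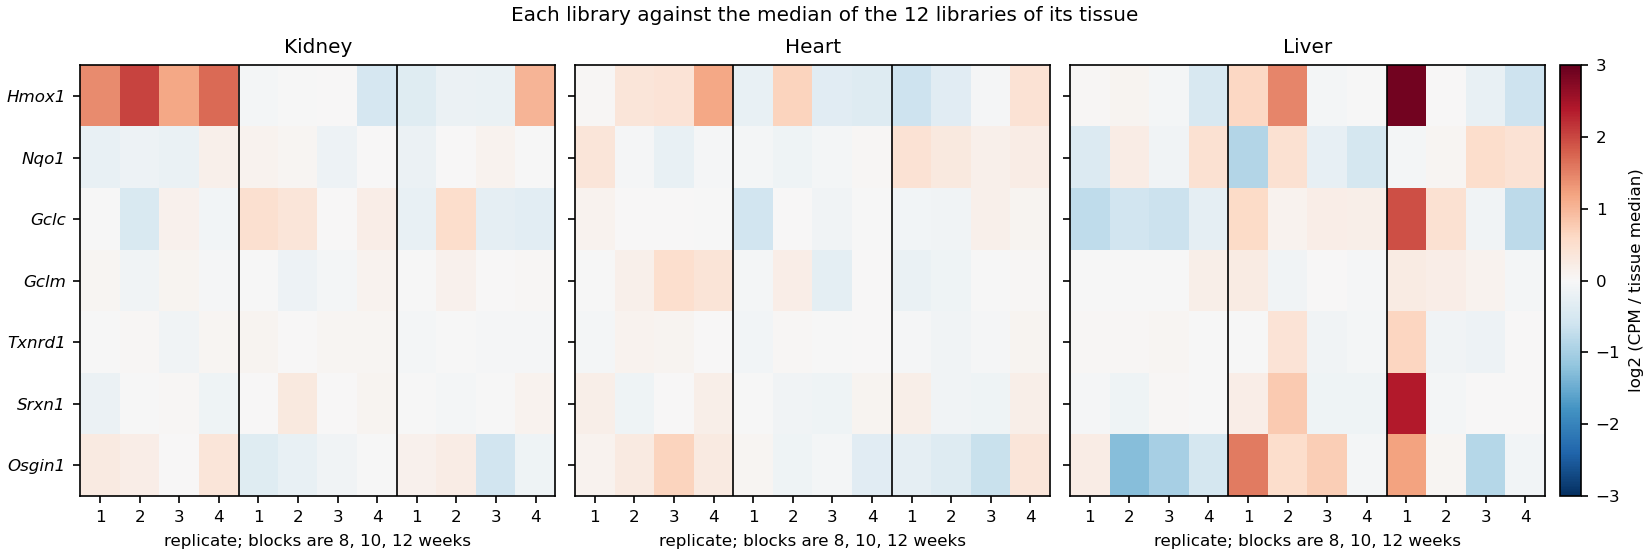
Log2 of each library's CPM over the median of the 12 libraries of its tissue, for 7 members (rows) and 3 organs; red is above and blue below the median. The 4 left columns of kidney are reddest for Hmox1, and in liver the column of 12-week replicate 1 is red for Hmox1, Gclc, Srxn1 and Osgin1.

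Genes outside the members, named here after their values were seen, were also high in that liver. Of 10 NRF2 regulators, 6 peaked there, with Nfe2l2 at 102 CPM (55.2 to 72.5 in the other 11), Bach1 at 177 CPM (65.7 to 122), Maff at 34.0 CPM (2.62 to 9.70) and Sqstm1 at 1277 CPM (415 to 696). Of 9 ATF4 targets 5 peaked there, led by Atf3 at 47.9 CPM (0.659 to 3.25), and of 19 genes of glutathione use 7 did. Of 8 quinone, aldehyde and xenobiotic enzymes 3 peaked there, of 7 thioredoxin system genes 1, and of 4 stress and clock genes 1. Of 11 heme and iron genes, 6 NADPH-forming enzymes and 6 other antioxidant genes, 0 peaked in this library. Of all 14672 genes 12.7% did, and in lists this short 0 or 1 is not far from that share. Neutrophil markers summed to 11.1 CPM in it and to 0.242-1.49 CPM in the other 12-week livers, while macrophage markers summed to 164-208 CPM over the 4 livers of that age. Their part in these values was not tested.

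A milder case was 10-week replicate 2 in liver. It ranked second of 12 for Hmox1 (55.7 CPM), Txnrd1 (263 CPM) and Srxn1 (66.9 CPM), and lowest for Gclm (277 CPM). It had the highest summed macrophage markers (482 CPM) and neutrophil markers (15.1 CPM) of all livers, and their part in these values was not tested.

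Gclc was the member whose 10-week livers all lay above its 8-week livers. Gclc read 154, 177, 167 and 216 CPM at 8 weeks and 389, 281, 302 and 298 CPM at 10 weeks. The groups did not overlap, Gclc being the 1 such member where 4.54% of all genes were higher in this way, and the difference of 0.83 ± 0.43 did not pass (edgeR adjusted p = 0.399). Macrophage markers summed to 306-482 CPM in these 10-week livers and 132-290 CPM in those of 8 weeks, and hepatocyte markers to 80861-101089 and 106677-141741 CPM, both without overlap. Their part in the liver values was not tested. Osgin1 read 112, 39.5, 47.8 and 66.5 CPM at 8 weeks and 282, 138, 159 and 91.2 CPM at 10 weeks, which overlapped (1.32 ± 0.45, adjusted p = 0.218). In liver edgeR called 0 of 7 members at 12 against 8 weeks, where 0.239% of all genes were called, 0 at 10 against 8 weeks (0.0204%) and 0 at 12 against 10 weeks (0.0545%). At an unadjusted p under 0.05 the counts were 2, 1 and 0, and DESeq2 and limma-voom called 0 in each. At 12 against 8 weeks 0 of 8 members differed without overlap, where 8.14% of all genes did, and at 12 against 10 weeks 0 did, where 8.23% did. Of 77 list genes edgeR and limma-voom called 0 in each liver comparison, with 24, 9 and 12 at an unadjusted p under 0.05 and 7, 2 and 2 called by DESeq2 at 12 against 8, 10 against 8 and 12 against 10 weeks.

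Whether the change from 8 to 12 weeks differed between organs was tested over all 36 libraries. The study used fewer mice at each age than there were libraries, so organs of the same animal were among them, but the labels do not say which. These fits, and those of level between organs, treat all libraries as independent. For Hmox1 the kidney change minus the liver change was -2.83 ± 0.68 and did not pass (edgeR adjusted p = 0.0563); it was -1.26 without liver 12-week replicate 1 (adjusted p = 0.270). The kidney change minus the heart change was -0.80 ± 0.70 (adjusted p = 0.735), and the heart change minus the liver change -2.03 ± 0.72 (adjusted p = 0.101). Of 7 members, edgeR called 0 for kidney against heart (0.112% of all 19716 genes called), 0 for kidney against liver (0.304%) and 0 for heart against liver (4.16%). At an unadjusted p under 0.05 the counts were 1, 4 and 5, DESeq2 called 0, 1 and 1 (Hmox1 for kidney against liver, Gclm for heart against liver), and limma-voom 0 in each. For kidney against liver Hmox1 passed without kidney 12-week replicate 4 (-3.27, edgeR adjusted p = 0.0334), liver 10-week replicate 2 (-2.83, 0.0376) or liver 12-week replicate 2 (-3.09, 0.0352), 3 (-3.12, 0.0258) or 4 (-3.15, 0.0123), the last with Gclc as a second call. For heart against liver, Gclm passed without heart 8-week replicate 1, Osgin1 without liver 8-week replicate 1, Gclc without liver 12-week replicate 3, and Gclc, Gclm and Hmox1 without liver 12-week replicate 4.

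The members differed in level between organs. Heart was lowest for 6 of the 7 tested: Gclc had medians of 14.5 CPM in heart, 221 CPM in kidney and 262 CPM in liver, Gclm 34.5, 293 and 298 CPM, and Osgin1 2.91, 34.2 and 95.6 CPM. No heart library reached the lowest kidney or liver library for these 3 genes. Nqo1 ran the other way, with medians of 43.6 CPM in heart, 42.0 CPM in kidney and 5.92 CPM in liver. Hmox1 had medians of 7.76, 25.8 and 20.3 CPM, in the order heart, kidney and liver.

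Averaged over ages, kidney exceeded heart by 4.02 ± 0.19 on the log2 scale for Gclc, 3.54 ± 0.22 for Osgin1, 3.03 ± 0.06 for Gclm, 2.14 ± 0.30 for Hmox1, 1.62 ± 0.18 for Srxn1 and 1.23 ± 0.07 for Txnrd1, the largest edgeR adjusted p being 4.72e-08. These were 6 of 7 members past an adjusted p of 0.05 and a log2 difference of 1, where 52.6% of all genes were. Nqo1 had -0.17 ± 0.09 (adjusted p = 0.0821). Against liver, heart was lower for 6 members and higher for Nqo1 (2.92 ± 0.10), so that 7 of 7 were called, where 55.3% of all genes were. The heart-liver differences ran from -1.54 ± 0.18 for Srxn1 to -5.21 ± 0.22 for Osgin1.

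Kidney and liver were closer to each other for these genes. Of 7 members 2 were called, where 47.8% of all genes were: Nqo1, higher in kidney by 2.75 ± 0.10, and Osgin1, lower by 1.67 ± 0.18 (edgeR adjusted p = 2.41e-10). Txnrd1 was lower in kidney by less than the fold required (-0.59 ± 0.06). Hmox1 had 0.28 ± 0.28 (adjusted p = 0.352), Gclc -0.35 ± 0.17, Gclm -0.08 ± 0.06 and Srxn1 0.08 ± 0.18. Some of these values hung on single libraries. Leaving out 1 library gave 0.13 to 0.80 for Hmox1, with edgeR adjusted p down to 1.56e-04. Srxn1 then ran from 0.0031 to 0.43 (edgeR adjusted p down to 3.02e-06) and Gclc from -0.44 to -0.080. The number of members called stayed at 2. These organ differences depend on scaling: with library size alone the median of all genes moved from 0.16 to 0.93 for kidney against liver and from 0.15 to 0.67 for kidney against heart, and the sign turned for Gclc (0.45), Gclm (0.71) and Txnrd1 (0.20) against liver and for Nqo1 (0.36) against heart. Under that scaling 9349 genes were called higher and 2116 lower in kidney than in liver, compared with 6026 and 3396 with TMM, 8086 and 3075 against heart, compared with 6064 and 4314, and Osgin1 lost its kidney-liver call (-0.88) while Hmox1 gained one (1.06, edgeR adjusted p = 6.68e-04).

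Set out over the 9 groups, mean Hmox1 ran from kidney at 8 weeks (79.1 CPM) through liver at 12 weeks (50.6), liver at 10 weeks (31.6), kidney at 12 weeks (29.4), kidney at 10 weeks (23.6), liver at 8 weeks (19.1) and heart at 8 weeks (11.4) to heart at 10 weeks (7.75) and 12 weeks (7.31). Each neighbour in this order overlapped the next in single libraries. Kidney at 8 weeks (57.2 to 106 CPM) and liver at 12 weeks overlapped only through liver replicate 1 at 151 CPM, the other livers of that age reading 13.3 to 20.5 CPM. Without replicate 1, the other 3 livers of 12 weeks averaged 17.0 CPM, below the mean of liver at 8 weeks.

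**Figure D5:**
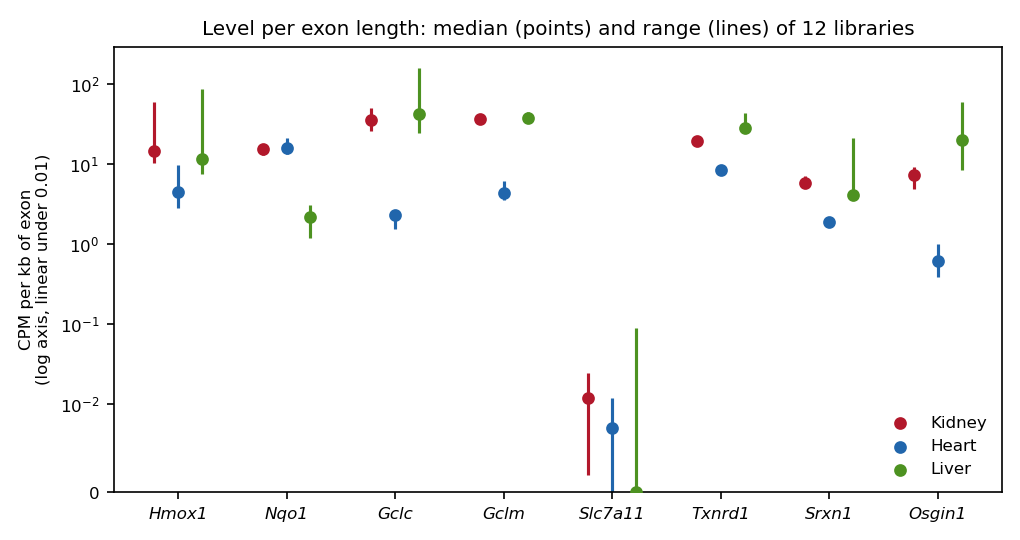
Level of each member in CPM per kb of exon (log axis, linear under 0.01) in kidney, heart and liver; points are medians and lines the range of 12 libraries. By the median over ages, Gclm and Gclc are the most abundant members per length in kidney and liver, and heart is lowest for 6 members.

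Per length of exon and by the median of 12 libraries over all ages, the glutamate-cysteine ligase subunits were the most abundant members in kidney and liver. In kidney the medians were 36.9 CPM per kb for Gclm, 35.3 for Gclc, 19.5 for Txnrd1, 15.3 for Nqo1, 14.7 for Hmox1, 7.21 for Osgin1, 5.75 for Srxn1 and 0.012 for Slc7a11. The ranges of Gclm and Gclc overlapped, and so did those of Nqo1 and Hmox1. At 8 weeks alone Hmox1 had the highest mean in kidney, at 45.0 ± 11.8 CPM per kb (SD, n = 4) beside 36.8 ± 2.26 for Gclm and 33.2 ± 5.33 for Gclc, and its libraries overlapped those of both. In heart Nqo1 led at 15.9 CPM per kb, ahead of Txnrd1 at 8.37, and in liver Gclc (41.8) and Gclm (37.4) led, with Osgin1 (20.2) above Hmox1 (11.5). Only 88.5 to 91.4% of the reads that fall on Gclm on either strand, and 89.7 to 92.2% for Srxn1, were counted without strand, since exons of these 2 genes overlap other genes, which lowers their level slightly beside the other members.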

How the data were processed

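Libraries were mapped to organ, age and replicate from their labels. The authors deposited read counts per gene for each library, made with STAR 2.7.11b (GRCm39) after FastQC 0.11.9 and cutadapt 4.2, named in the submitters' processing notes. The unstranded counts were used as deposited. Reads shared by overlapping genes (7.36 to 8.95% of reads) or mapping to several places (6.26 to 19.1%) were not counted, which lowers genes with overlaps or close copies, and 1.60 to 5.16% fell on no gene. Depth was 21031599 to 33637390 counted pairs per library, and 0 pairs of libraries held identical values. Precision at low values is that of the counts, and a count of 0 was given an upper limit of 3 counts.

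Genes were kept where at least 1 age group had 2 or more libraries above 0 and a mean of 10 counts. Ages were compared within an organ, and organs over all 36 libraries, with edgeR 4.0.16 (TMM, quasi-likelihood F-test) in R 4.3.3, with p-values adjusted over all genes kept by Benjamini-Hochberg and a threshold of 0.05. Differences in level between organs also had to exceed 1 on the log2 scale. The scripts were tested on simulated data. limma 3.58.1 (voom), DESeq2 1.42.0, other scaling and filters, counts of the first strand, a replicate block and leaving out each library were the alternatives. Mean CPM at different ages of an organ was compared by exact permutation of libraries in scipy 1.17.1, and CPM used TMM factors over all 36 libraries. Overlap of the ages was read from this CPM for the members. For the share of all genes it was read from log2 CPM with TMM factors within the organ. That share covers the genes kept, so Slc7a11 is not in it. Lengths are the union of exons.

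The 8 members and the lists of related genes were chosen with earlier results of these data known. The members are named in every organ; from other lists, genes past the threshold are named, at most 4 per list in kidney at 12 against 8 weeks and at most 2 elsewhere, and the 5 genes most like Hmox1 by Pearson's r.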

Additional observations from a re-analysis of the deposited data

Results flagged for a closer look

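Within each group of 4 libraries, a value was picked out when its gap to the nearest of the others was over the 95% critical value of Dixon's test for 4 samples, as a share of the range of the group. Of 72 groups of member and condition, 13 had such a library, and chance picks out about 1 in 20 groups. In 3 of the 13, those of Slc7a11 in liver, the other 3 libraries were at 0, which fixes the ratio at its maximum, so the chance rate applies at most to the other 10 of 69. The members share libraries, so the 72 groups are not independent.

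For Hmox1 these were heart 10 weeks replicate 2 at 12.3 CPM (the others 5.97 to 6.60), kidney 10 weeks replicate 4, low at 18.1 CPM (the others 24.9 to 26.2), kidney 12 weeks replicate 4 at 52.1 CPM (the others 20.1 to 22.7) and liver 12 weeks replicate 1 at 151 CPM (the others 13.3 to 20.5). The same liver library was high for Srxn1 at 201 CPM (the others 37.6 to 39.3), for Txnrd1 at 309 CPM (the others 178 to 199) and for Slc7a11 at 1.39 CPM, where the other 3 were at 0. Liver 10 weeks replicate 2 was high for Txnrd1 at 263 CPM (the others 183 to 196) and for Slc7a11 at 0.229 CPM, again with the other 3 at 0.

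Gclc was high in heart 8 weeks replicate 1 at 15.6 CPM (the others 14.4 to 14.6) and in kidney 12 weeks replicate 2 at 318 CPM (the others 177 to 189). Gclm was high in liver 8 weeks replicate 4 at 337 CPM (the others 294 to 296). Slc7a11 read 0.0437 CPM in liver 8 weeks replicate 2 and 0 in the other 3, a value below the limit that a count of 0 allows there.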

How the results depend on the processing

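Of the log2 differences recomputed under the other tools, scalings, filters and strand counts, 650 kept their direction and their side of the threshold, 15 passed only under the alternative, 1 passed only as reported and 6 turned sign. Of those with 1 library left out, 2208 kept both and 43 turned sign. The cause was not tested for any change given here.

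Hmox1 in kidney at 12 against 8 weeks passed with DESeq2 (-1.43), without a filter on low counts (-1.43) and with first-strand counts (-1.46, edgeR adjusted p = 0.0499), and leaving out 1 library gave -1.86 to -1.25 with adjusted p from 0.00174 to 0.320. Under a replicate block it was -1.46 (edgeR adjusted p = 0.152). The replicate numbers were treated as names only. Deviations of same-numbered libraries correlated over 0.1 in 1 of 12 kidney, 3 of 12 heart and 3 of 12 liver pairs of ages. Between organs they did so in 1 of 12 kidney-heart pairs (0.014 to 0.10), 3 of 12 kidney-liver pairs (0.033 to 0.16) and 0 of 12 heart-liver pairs (-0.0088 to 0.081). All kidney-heart and kidney-liver pairs were thus above 0. Pairs with different numbers were not compared, so whether same-numbered organs came from the same mouse was not tested. The replicate block changed no count of members called. With it, the Hmox1 change of kidney against liver was -2.33 (edgeR adjusted p = 0.116).

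The number of members called became 1 for kidney 12 against 8 weeks (DESeq2, no filter, first strand), 3 for kidney 10 against 8 weeks (no filter) and 1 for kidney 12 against 10 weeks (no filter). It became 1 (DESeq2) or 2 (no filter) for heart 12 against 8 weeks, 1 without the filter for heart 10 against 8, liver 12 against 8 and liver 10 against 8 weeks, and 1 with DESeq2 for the change of kidney against liver and of heart against liver. Leaving out 1 library gave 0 to 1 for both kidney comparisons with 8 weeks, 0 to 2 for heart 12 against 8 weeks, 0 to 2 for the change of kidney against liver and 0 to 3 for heart against liver.

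The sign turned with library size alone for Nqo1 in kidney against heart (0.36) and for Gclm (0.71), Txnrd1 (0.20) and Gclc (0.45) in kidney against liver, with first-strand counts for Txnrd1 in heart 12 against 10 weeks (0.0072), and with no filter for Gclm in liver 10 against 8 weeks (0.022).

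Leaving out 1 library turned the sign of 27 of these differences. In log2 units the lowest and highest values were, for kidney 12 against 8 weeks, Gclc -0.18 to 0.15, and for kidney 10 against 8 weeks, Gclm -0.046 to 0.032, and for kidney 12 against 10 weeks, Nqo1 -0.095 to 0.0081, Hmox1 -0.14 to 0.44 and Osgin1 -0.0030 to 0.24. They were, for heart 12 against 8 weeks, Srxn1 -0.10 to 0.0056 and Gclc -0.076 to 0.015, and for heart 10 against 8 weeks, Nqo1 -0.16 to 0.040, and for heart 12 against 10 weeks, Gclm -0.12 to 0.030, Txnrd1 -0.047 to 0.0095, Hmox1 -0.30 to 0.23 and Osgin1 -0.34 to 0.031. They were, for liver 12 against 8 weeks, Txnrd1 -0.13 to 0.19 and Hmox1 -0.19 to 1.73, and for liver 10 against 8 weeks, Gclm -0.080 to 0.043 and Txnrd1 -0.10 to 0.090, and for liver 12 against 10 weeks, Srxn1 -0.25 to 1.06, Txnrd1 -0.16 to 0.21, Hmox1 -0.91 to 1.13 and Gclc -0.35 to 0.75. They were, for the change of kidney against heart, Txnrd1 -0.013 to 0.053 and Gclc -0.17 to 0.16, and for the change of kidney against liver, Srxn1 -1.22 to 0.046, Txnrd1 -0.23 to 0.073 and Nqo1 -0.25 to 0.031, and for the change of heart against liver, Txnrd1 -0.25 to 0.052 and Nqo1 -0.080 to 0.20.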
